A study of Homo sapiens with 24 samples.

Results

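The ID genes and the bone morphogenetic protein (BMP) branch of the SMAD pathway were followed in SK-MES1, an established human cell line of squamous lung carcinoma. The 10 genes examined were ID1, ID2, ID3 and ID4, the ligand genes BMP2, BMP4 and BMP7, and the receptor-regulated SMAD genes SMAD1, SMAD5 and SMAD9. They were chosen by name, with earlier results of these data known. All 10 were among the 17413 genes that passed the filter on low counts, of 34834 genes with a transcript in the files. In both arms the cells were deprived of growth factors for 3 h. One arm then received 2 ng/ml TGFβ1 and the other none, and RNA was collected at 0, 8, 24 and 48 h from 3 replicates per arm and time, which gives 24 libraries in 8 groups. By the study's methods the stimulation itself took place in medium without growth factors, so depletion was not limited to these 3 h. The medium of the untreated arm after 0 h is not stated separately. Levels are given in TPM, which is scaled to transcript length and to the library, as mean ± SD of 3 libraries. Arm differences are log2 differences of limma voom, TGFβ1 minus untreated, with the standard error (SE), and a gene was called at an adjusted p below 0.01 over all genes tested.

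As background, ID proteins are helix-loop-helix proteins that lack a DNA-binding region and keep basic helix-loop-helix factors from binding DNA. Their genes are classical targets of BMP signalling: BMP ligands activate receptors that phosphorylate SMAD1, SMAD5 and SMAD9, and these enter the nucleus with SMAD4. TGFβ1 mainly activates SMAD2 and SMAD3 and is known to repress ID genes in many epithelial cells.

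The DNA element through which BMP-activated SMADs are known to act combines a GC-rich SMAD site with a GTCT site a few bases away. The element was searched on either strand as GGCGNC, or with A as its second base, followed by any 5 bases and then GTCT, in the 3000 bases before the annotated start of each protein-coding gene (hg38). At least 1 match was present in 1.56% of 20026 such windows. Of the 10 genes, ID1 had 1 match and ID3 had 2, and the other 8 had 0 matches in this window. From the lists of BMP genes used below, ATOH8, SMAD6 and SMAD7 were searched as well, and each had 0 matches. The stretches are shown because they distinguish ID1 and ID3 from the other members. Capitals mark the match, and each stretch is written along the strand of its gene.
ID1, chr20:31604363-31604407, plus strand: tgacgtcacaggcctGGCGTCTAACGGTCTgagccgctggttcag
ID3, chr1:23562434-23562478, minus strand: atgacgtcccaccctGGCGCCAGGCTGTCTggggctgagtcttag
ID3, chr1:23559978-23560022, minus strand: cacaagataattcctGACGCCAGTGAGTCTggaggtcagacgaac
The ID1 match begins 911 bases before the start, and the stretch shown overlaps an exon of the annotated gene ENSG00000289875. The ID3 matches begin 2962 and 506 bases before the start and overlap no annotated gene. In ID1, TGACGTCA, the palindrome bound by CREB and ATF factors, stands 7 bases before the match, and 4.44% of all windows hold that palindrome. A match is a description of the letters and not evidence that a factor binds there.

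Closer to the start, the 250 bases before the start of the ID genes are shown (RefSeq windows, GRCh38.p14), because the 4 genes differ in core promoter letters. Capitals mark TATAAA and the CCAAT box on either strand, and where the former occurs on both strands the matches overlap.
ID1, chr20:31605039-31605288, plus strand: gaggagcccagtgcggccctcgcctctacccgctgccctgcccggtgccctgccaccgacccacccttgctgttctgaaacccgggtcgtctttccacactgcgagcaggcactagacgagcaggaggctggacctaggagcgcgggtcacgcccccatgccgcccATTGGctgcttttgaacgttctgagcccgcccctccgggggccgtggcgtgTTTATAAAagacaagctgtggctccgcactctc
ID2, chr2:8681806-8682055, plus strand: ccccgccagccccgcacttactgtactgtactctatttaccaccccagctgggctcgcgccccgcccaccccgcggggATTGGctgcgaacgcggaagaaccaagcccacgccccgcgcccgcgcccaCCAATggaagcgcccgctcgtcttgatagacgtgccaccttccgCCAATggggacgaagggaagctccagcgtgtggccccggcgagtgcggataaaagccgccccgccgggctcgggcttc
ID3, chr1:23559502-23559751, minus strand: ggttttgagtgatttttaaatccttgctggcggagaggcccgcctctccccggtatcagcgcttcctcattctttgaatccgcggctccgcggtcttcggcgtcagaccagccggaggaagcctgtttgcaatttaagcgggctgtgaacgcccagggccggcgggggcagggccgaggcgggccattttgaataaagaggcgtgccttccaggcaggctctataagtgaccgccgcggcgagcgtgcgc
ID4, chr6:19837120-19837369, plus strand: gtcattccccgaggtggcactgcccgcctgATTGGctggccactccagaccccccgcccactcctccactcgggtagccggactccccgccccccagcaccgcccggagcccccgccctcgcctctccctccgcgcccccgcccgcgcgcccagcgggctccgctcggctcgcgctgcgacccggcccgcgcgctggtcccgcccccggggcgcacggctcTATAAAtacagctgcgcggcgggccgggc
TATAAA was present in the windows of ID1 and ID4. The CCAAT box was present in those of ID1, ID2 and ID4. The ID3 window held neither. Over the full windows, which run to 50 bases past the start, TATAAA was present in 11.5% of 35116 windows and the CCAAT box in 34.6%. The SMAD motif GGCGCC, held by 19.2% of all windows, was in none of the 4 ID windows. The same was true of the SMAD motif CAGACA, held by 16.9%, and of the palindrome named above, held by 1.85%.

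The libraries held 46613589 to 77964234 estimated counts each, with a median of 54120879. At 0 h limma voom called 0 of 17413 genes, 800 had an unadjusted p below 0.05, and edgeR and DESeq2 called 0 of the 10 genes. The response to TGFβ1 was visible in PMEPA1, SKIL and SMAD7, each called higher at 8, 24 and 48 h, with log2 differences of 3.31, 2.26 and 1.98 at 8 h. Among 9 squamous markers, 5 had a median of at least 1 TPM (TP63, PKP1, SERPINB5, KRT17 and SOX2), whereas KRT5, KRT6A, KRT14 and DSG3 were at or near 0. These medians are over both arms, and that of KRT17 was 0.838 TPM in the untreated and 12.6 TPM in the TGFβ1 arm, that of SOX2 4.51 and 1.18 TPM. The markers of other cell types with a median of at least 1 TPM were 0 of 5 for alveolar or adenocarcinoma cells, 2 of 4 for blood, 1 of 3 for endothelium and 3 of 5 for fibroblasts. Those detected at this level were CD68 (median 19.8 TPM), PTPRC (1.78 TPM), PECAM1 (1.23 TPM), LUM (6.38 TPM), PDGFRB (5.77 TPM) and COL1A1, while CD3E was at 0 in all libraries and the medians of CDH5 and COL1A2 were 0.0300 and 0.0342 TPM. COL1A1 had a median of 263 TPM in the untreated and 1028 TPM in the TGFβ1 arm, and PDGFRB of 4.85 and 11.0 TPM. The part of these markers in the results was not tested. Within each arm, the 0 and 8 h libraries share a code in the file names and the 24 and 48 h libraries share another. The code is not explained, so at a single time point it cannot be told apart from the arm, while the change of the arm difference from 0 to 8 h or from 24 to 48 h is free of any offset tied to it.

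At 8 h, 4 of the 10 genes were called, all lower with TGFβ1, where 16.4% of all genes were called, 7.28% lower and 9.14% higher. At 24 h, 8 were called, against 29.4% of all genes: 7 were lower and 1 higher, against 13.9% and 15.5%. At 48 h, 7 were called, against 32.7% of all genes: 6 were lower and 1 higher, against 16.5% and 16.2%. A joint F-test over 8, 24 and 48 h called 8 of the 10 genes, against 42.6% of all genes. The test itself has no direction, and higher or lower beside it is the sign of the mean log2 difference over 8, 24 and 48 h. ID1, ID2, ID3, ID4, BMP4, BMP7 and SMAD9 were lower and SMAD1 was higher in this test, where 21.6% of all genes were lower and 21.0% higher. BMP2 and SMAD5 did not pass it, with adjusted p of 0.31 and 0.02. At 0 h the libraries of the arms overlapped for all 10 genes. They did not overlap for 4 genes at 8 h, 7 at 24 h and 9 at 48 h, where this held for 47.5%, 40.4% and 55.2% of all genes, and for 6.98% at 0 h. The change of the arm difference was called for 3 of the 10 genes from 0 to 8 h, all lower (7.91% of all genes, 2.84% lower), for 2 from 8 to 24 h, both lower (6.70%, 2.54% lower), and for 1 from 24 to 48 h, higher (9.14%, 3.51% higher). Within arms, 5 genes changed from 0 to 8 h in untreated and 6 in treated cells, against 26.0% and 33.9% of all genes, and 6 and 3 changed from 24 to 48 h, against 28.5% and 25.8%. In these bulk libraries, fewer cells of a kind and less RNA per cell cannot be told apart. The 4 ID genes had a median log2 arm difference of -1.23 at 8 h, -2.27 at 24 h and -1.95 at 48 h, and the medians over all genes tested were between -0.02 and -0.01.

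**Figure D1:**
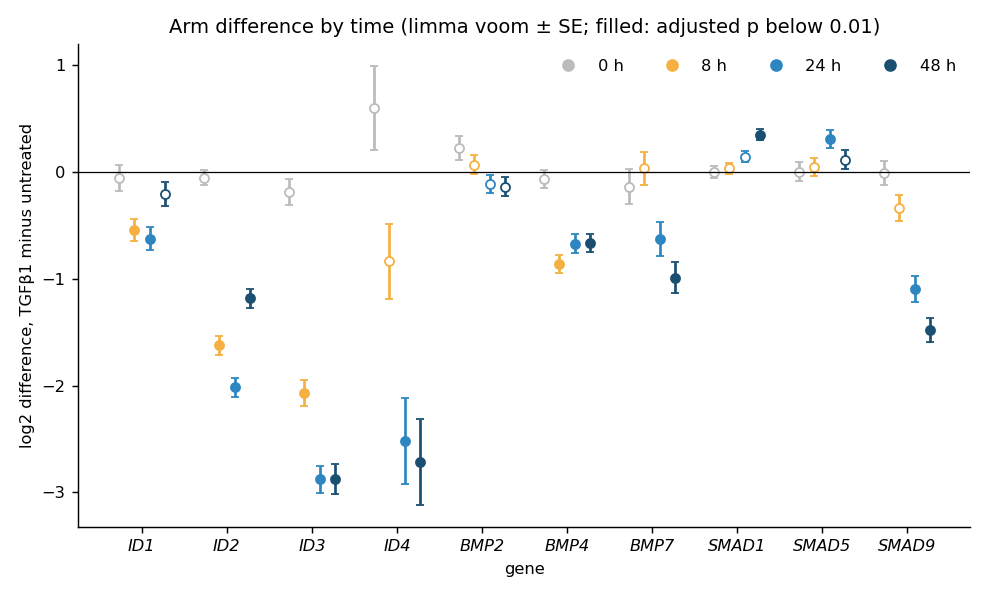
Log2 arm difference of each of the 10 genes at 0, 8, 24 and 48 h (limma voom, TGFβ1 minus untreated, points with SE bars; filled points passed an adjusted p of 0.01). The largest differences are those of ID3 and ID4 at 24 and 48 h, between -2.88 and -2.52, and no point at 0 h is filled.

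ID3 (chr1:23557926-23559501, minus strand) had the largest difference among the 10 genes at 8, 24 and 48 h. In the untreated cells its level was 64.7, 59.6 and 64.7 TPM at 0 h and 167, 161 and 150 TPM at 8 h. With TGFβ1 the libraries gave 61.2, 49.7 and 61.4 TPM at 0 h and 34.7, 34.7 and 39.0 TPM at 8 h. The untreated cells thus moved up and the treated cells down from a shared starting level. At 24 h ID3 stood at 201, 181 and 206 TPM without and 25.3, 25.7 and 29.1 TPM with TGFβ1. At 48 h the libraries gave 137, 122 and 134 TPM against 15.6, 18.2 and 19.4 TPM. No library of one arm came near those of the other after 0 h. The log2 arm difference was -2.07 ± 0.12 at 8 h (SE, adjusted p = 1.9e-11), -2.88 ± 0.13 at 24 h (adjusted p = 7.1e-14) and -2.87 ± 0.14 at 48 h (adjusted p = 3.2e-13). In mean TPM this was 4.41-fold, 7.33-fold and 7.38-fold lower. Within arms, the untreated level rose from 0 to 8 h by 1.29 on the log2 scale (adjusted p = 1.8e-08), and that of the treated cells fell by 0.59 (adjusted p = 0.00065). From 24 to 48 h ID3 fell in both arms, by 0.63 and 0.62 on the log2 scale.

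ID2 (chr2:8678845-8684461, plus strand) fell with TGFβ1 and did not rise in the untreated cells. Its untreated level was 34.0, 31.7 and 25.9 TPM at 0 h and 22.1, 21.9 and 21.4 TPM at 8 h. The treated libraries gave 28.8, 27.0 and 25.8 TPM at 0 h and 7.83, 6.85 and 6.00 TPM at 8 h. Both arms were thus lower at 8 h than at 0 h, the treated one by far more. The untreated libraries then held 27.0, 22.8 and 26.5 TPM at 24 h and a mean of 19.2 ± 0.73 TPM at 48 h. The treated ones held 6.02, 6.39 and 6.03 TPM at 24 h and 8.65, 7.48 and 8.14 TPM at 48 h. The arms did not overlap at 8, 24 or 48 h. The log2 arm difference was -1.62 ± 0.09 at 8 h (adjusted p = 7.3e-12), -2.02 ± 0.09 at 24 h (adjusted p = 1.1e-13) and -1.18 ± 0.09 at 48 h (adjusted p = 5.5e-10). It narrowed from 24 to 48 h by 0.83 ± 0.13 on the log2 scale (adjusted p = 9.3e-05). ID2 was the only one of the 10 genes called for a change in that interval, where 9.14% of all genes were called. Over it the untreated level fell by 0.50 (adjusted p = 1.2e-05), and the treated level differed by 0.33 ± 0.10, which did not pass (adjusted p = 0.017).

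ID1 (chr20:31605283-31606515, plus strand) rose in both arms, less so with TGFβ1. The untreated libraries held 39.3, 38.7 and 40.3 TPM at 0 h and 136, 142 and 128 TPM at 8 h. The treated libraries held 41.4, 28.0 and 43.5 TPM at 0 h and 89.2, 88.4 and 90.5 TPM at 8 h. One treated library at 0 h was below the other two, and at 8 h every treated library was below every untreated one. At 24 h the levels were 115, 103 and 118 TPM without and 79.2, 64.0 and 70.8 TPM with TGFβ1. At 48 h they were 84.6, 84.5 and 82.1 TPM against 72.4, 68.7 and 71.9 TPM, close together but not overlapping. The log2 arm difference was -0.54 ± 0.10 at 8 h (adjusted p = 0.00046), -0.62 ± 0.11 at 24 h (adjusted p = 7.7e-05) and -0.21 ± 0.11 at 48 h, which did not pass (adjusted p = 0.14). From 0 to 8 h ID1 rose by 1.74 on the log2 scale in the untreated cells and by 1.26 in the treated ones (adjusted p = 1.8e-10 and 1.5e-08). The change of its arm difference over that interval, -0.48 ± 0.16, did not pass the threshold (adjusted p = 0.057). Scaled to the 4 reference genes of the study's qRT-PCR, the difference at 24 h was -0.27 and no longer passed (adjusted p = 0.013), and at 48 h it was 0.14, with the opposite sign. Taken as the change from 0 h, the difference at 24 h was -0.57 and did not pass either (adjusted p = 0.014).

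ID4 (chr6:19837370-19842197, plus strand) was close to the limit of detection, with 3 to 33 estimated counts per library. Its level in the untreated cells was 0.136, 0.0455 and 0.160 TPM at 0 h, 0.238, 0.274 and 0.125 TPM at 8 h, 0.328, 0.347 and 0.288 TPM at 24 h and 0.371, 0.449 and 0.397 TPM at 48 h. The treated libraries held 0.134, 0.175 and 0.146 TPM at 0 h and 0.144, 0.104 and 0.0818 TPM at 8 h, and between 0.0330 and 0.0634 TPM at 24 and 48 h. The libraries overlapped at 0 and 8 h and did not at 24 and 48 h. Summed over 3 libraries, ID4 had 78 counts without and 12 with TGFβ1 at 24 h, which per library total is a 6.60-fold ratio with an exact 95% interval of 3.57 to 13.3. At 48 h the sums were 96 and 11 counts and the ratio was 7.70, with an interval of 4.11 to 15.9. These intervals cover counting error only. In limma voom the log2 difference was -0.84 ± 0.35 at 8 h, which did not pass (adjusted p = 0.092), and -2.52 ± 0.40 and -2.71 ± 0.40 at 24 and 48 h (adjusted p = 3.2e-05 and 1.1e-05).

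**Figure D2:**
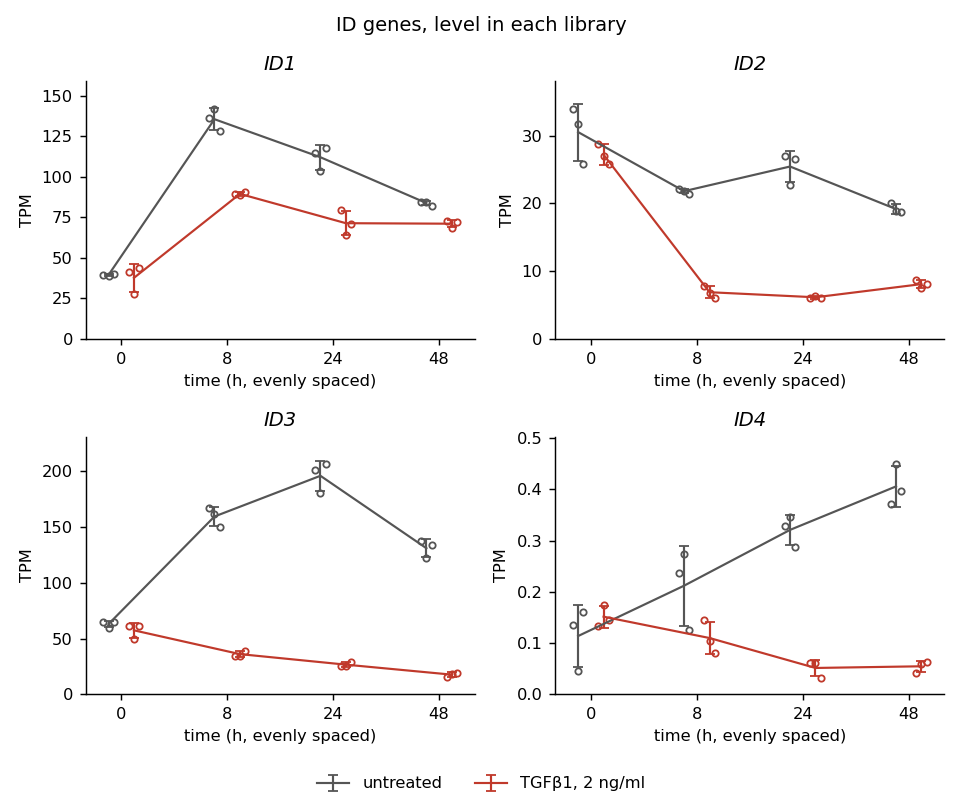
Level of the ID genes in each library (open circles, TPM) at 0, 8, 24 and 48 h, with mean and SD of 3 libraries per arm (grey, untreated; red, TGFβ1). The arms start together, and at 24 h ID3 stands at 196 against 26.7 TPM, ID1 at 112 against 71.3 TPM, ID2 at 25.4 against 6.15 TPM and ID4 at 0.321 against 0.0517 TPM.

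In sum, the 4 ID genes held 133 ± 4.4 TPM in the untreated and 122 ± 15 TPM in the treated arm at 0 h. Without TGFβ1 the sum was 317 ± 15 TPM at 8 h, 334 ± 23 TPM at 24 h and 234 ± 8.3 TPM at 48 h. With TGFβ1 it was 133 ± 2.8, 104 ± 7.3 and 96.9 ± 2.6 TPM. The treated cells thus stayed near or below the level at 0 h, while the untreated cells rose above it. The make-up of the sum also differed between the arms. ID3 supplied 47.3% of it in untreated cells at 0 h and 55.9 ± 1.6% at 48 h, but 18.3 ± 1.9% in treated cells at 48 h. ID1 supplied 73.3 ± 1.4% in treated cells at 48 h and 35.8 ± 1.4% in untreated cells. These shares are descriptions of 3 libraries per group.

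**Figure D3:**
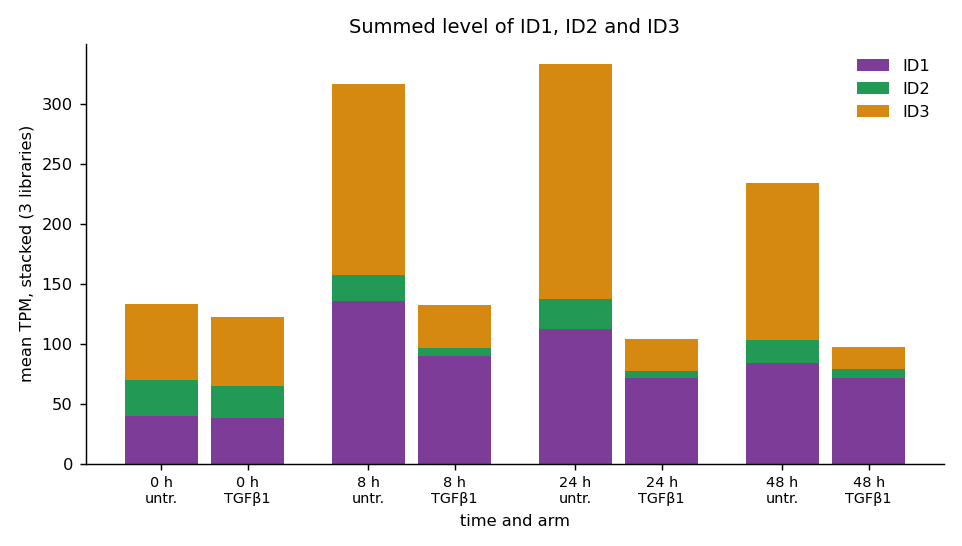
Stacked mean TPM of ID1, ID2 and ID3 (3 libraries per bar) by time and arm; ID4, at most 0.406 TPM in any group, is not drawn. The bars are of like height and composition at 0 h, and at 48 h the untreated bar is mostly ID3 and the TGFβ1 bar mostly ID1.

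Of the ligands, BMP4 (chr14:53949736-53958761, minus strand) was by far the most abundant, with 90.0 to 95.2% of the summed TPM of BMP2, BMP4 and BMP7 in every group. The untreated libraries held 43.8, 39.1 and 42.0 TPM of BMP4 at 0 h, 49.4, 50.8 and 46.8 TPM at 8 h, 44.9, 40.3 and 43.1 TPM at 24 h, and 69.5, 66.6 and 65.2 TPM at 48 h. The treated libraries held 39.8, 36.0 and 41.9 TPM at 0 h, 26.3, 26.6 and 25.3 TPM at 8 h, 30.1, 23.4 and 25.5 TPM at 24 h, and 44.9, 42.5 and 40.2 TPM at 48 h. From 8 h on, every treated library was below every untreated one of its time point. The log2 arm difference was -0.87 ± 0.08 at 8 h (adjusted p = 7.2e-08), -0.67 ± 0.09 at 24 h (adjusted p = 1.9e-06) and -0.67 ± 0.08 at 48 h (adjusted p = 8.4e-07). With the 4 reference genes as scale it was -0.32 at 24 and 48 h and still passed. BMP4 was also called for the change of the arm difference from 0 to 8 h, -0.80 ± 0.12 (adjusted p = 5e-05), as were ID2 (-1.57) and ID3 (-1.88), where 7.91% of all genes were called. From 24 to 48 h the BMP4 level rose in both arms, by 0.61 and 0.62 on the log2 scale.

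BMP7 was low and was called lower with TGFβ1 at 24 and 48 h. The untreated libraries held 1.488, 2.404 and 2.568 TPM at 24 h and 3.56, 3.58 and 3.17 TPM at 48 h. With TGFβ1 they held 1.67, 1.06 and 1.55 TPM at 24 h and 1.25, 1.95 and 1.63 TPM at 48 h. The arms overlapped at 24 h and did not at 48 h. The log2 arm difference was 0.04 ± 0.16 at 8 h, -0.63 ± 0.16 at 24 h (adjusted p = 0.0028) and -0.99 ± 0.14 at 48 h (adjusted p = 6.7e-06). Its change from 8 to 24 h, -0.665 ± 0.220, did not pass, nor did that from 24 to 48 h, -0.361 ± 0.211 (adjusted p = 0.056 and 0.29). The call at 24 h was lost without untreated replicate 3 or treated replicate 2 of that time (adjusted p = 0.02 and 0.019), and under 6 of 13 alternatives.

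No arm difference of BMP2 passed the test at any time. It rose from 0 to 8 h in both arms, from a mean of 0.825 to 1.35 TPM in untreated and from 0.946 to 1.37 TPM in treated cells (adjusted p = 3.4e-05 and 0.00028). At 48 h the means were 1.69 ± 0.077 and 1.51 ± 0.050 TPM, without overlap of the libraries, and the log2 difference was -0.14 ± 0.09 (adjusted p = 0.23). With the 4 reference genes as scale the sign at 24 and 48 h was positive.

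**Figure D4:**
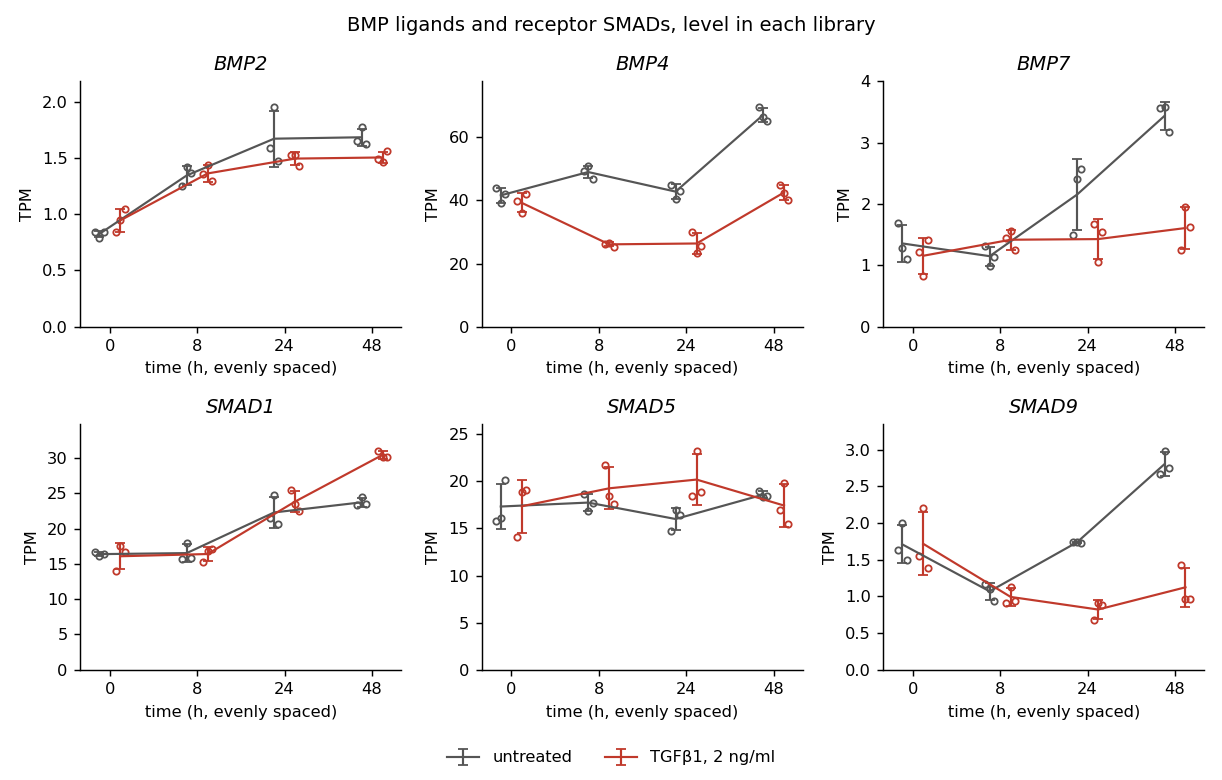
Level of BMP2, BMP4, BMP7, SMAD1, SMAD5 and SMAD9 in each library (open circles, TPM) by time, with mean and SD of 3 libraries per arm (grey, untreated; red, TGFβ1). BMP4 is lower with TGFβ1 from 8 h on, BMP7 and SMAD9 separate by 48 h, and SMAD1 is the gene that ends higher, at 30.4 against 23.7 TPM.

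Of the SMAD genes, SMAD9 (chr13:36844831-36920887, minus strand) was the least abundant and the one called lower with TGFβ1. From 0 to 8 h SMAD9 changed by -0.47 in untreated and -0.79 in treated cells on the log2 scale (limma voom, adjusted p = 0.0027 and 1.7e-05). Its libraries overlapped at 0 h (1.635, 1.999 and 1.496 TPM without, 1.56, 2.21 and 1.39 TPM with TGFβ1) and at 8 h (1.17, 1.10 and 0.942 against 0.911, 1.13 and 0.937 TPM). At 24 h they held 1.74, 1.75 and 1.73 TPM against 0.681, 0.907 and 0.877 TPM. At 48 h they held 2.67, 2.99 and 2.76 TPM against 1.44, 0.969 and 0.970 TPM. The untreated level returned to its level at 0 h and then exceeded it, and the treated level did not. The log2 arm difference was -0.34 ± 0.12 at 8 h, which did not pass (adjusted p = 0.053), -1.10 ± 0.12 at 24 h (adjusted p = 1.9e-07) and -1.48 ± 0.11 at 48 h (adjusted p = 6.6e-10). SMAD9-203, annotated as a target of nonsense-mediated decay, made up 31.7 to 66.8% of the gene's TPM over the groups. At 48 h it was at 1.88 ± 0.33 TPM in untreated and 0.690 ± 0.050 TPM in treated cells. The coding SMAD9-201 was at 0.507 ± 0.18 and 0.238 ± 0.052 TPM. SMAD9-202, the principal coding transcript, was at 0.263 ± 0.26 TPM in untreated cells. The difference at 48 h is thus not one of coding transcripts alone.

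SMAD1, the most abundant of the 3 with SMAD5, was called higher at 48 h. The untreated libraries held 23.3, 24.5 and 23.4 TPM and the treated ones 31.0, 30.1 and 30.1 TPM. They did not overlap, and the log2 difference was 0.35 ± 0.05 (adjusted p = 5.6e-06). At 8 h the means were 16.5 and 16.4 TPM, and at 24 h the log2 difference of 0.14 ± 0.05 did not pass (adjusted p = 0.028). With the 4 reference genes as scale SMAD1 passed at 24 h (0.49) and stood at 0.70 at 48 h, and without untreated replicate 2 of 24 h it passed at that time (adjusted p = 0.0099). SMAD5 was called at 24 h only: its libraries held 14.7, 16.9 and 16.4 TPM without and 18.5, 23.3 and 18.8 TPM with TGFβ1, with a log2 difference of 0.31 ± 0.09 (adjusted p = 0.0064). This call was lost without untreated replicate 1 or 3 or treated replicate 2 of that time, and under 8 of 13 alternatives. At 48 h the SMAD5 difference was 0.11 ± 0.09 (adjusted p = 0.31), and it passed only with the reference genes as scale (0.46, adjusted p = 0.0013).

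The rest of the pathway was taken from fixed lists of BMP genes. By the F-test, where 42.6% of all genes were called, 5 of 11 tested receptors and co-receptors were higher with TGFβ1 and 0 lower by the mean over the times. Their median log2 difference was 0.08 against -0.02 over all genes. At 48 h alone 4 were called higher and 1 lower, against 16.2% and 16.5% of all genes. BMPR2, the type II BMP receptor, was at 10.9 ± 0.36 and 18.2 ± 0.72 TPM at 8 h and at 13.1 ± 0.24 and 32.8 ± 0.20 TPM at 48 h (log2 difference 1.35, adjusted p = 5.4e-11). ACVR1, a type I receptor, was at 21.7 ± 0.76 and 37.4 ± 0.56 TPM at 48 h (log2 difference 0.83, adjusted p = 5.3e-12). With library totals in place of TMM factors, 3 receptors were higher and 1 lower, and with the reference genes 8 were higher and 0 lower. These scalings shift all genes. With library totals, 34.2% and 35.6% of all called genes were higher at 24 and 48 h, and with the reference genes 91.5% and 88.6%.

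Of 17 secreted BMP inhibitors and modulators tested, the F-test called 6 higher and 5 lower, where 21.0% of all genes were higher and 21.6% lower. NOG encodes noggin, which binds BMP ligands and keeps them from their receptors. Its level was 1.22 ± 0.060 and 1.21 ± 0.17 TPM at 0 h, 1.75 ± 0.099 and 6.38 ± 0.53 TPM at 8 h, 2.43 ± 0.33 and 11.4 ± 1.1 TPM at 24 h, and 4.26 ± 0.66 and 29.4 ± 1.9 TPM at 48 h. The arms did not overlap after 0 h, and the log2 difference was 1.92, 2.28 and 2.81 at 8, 24 and 48 h (adjusted p = 3e-10, 1.4e-12 and 1.3e-15). FSTL3, a follistatin-like inhibitor of activins, was at 11.6 ± 1.5 and 172 ± 24 TPM at 24 h (log2 difference 4.08, adjusted p = 3e-15). BMP1, a protease that also cleaves the BMP antagonist chordin, was higher by 1.15 on the log2 scale at 48 h, and TLL1, a related protease, was lower by -2.32.

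**Figure D5:**
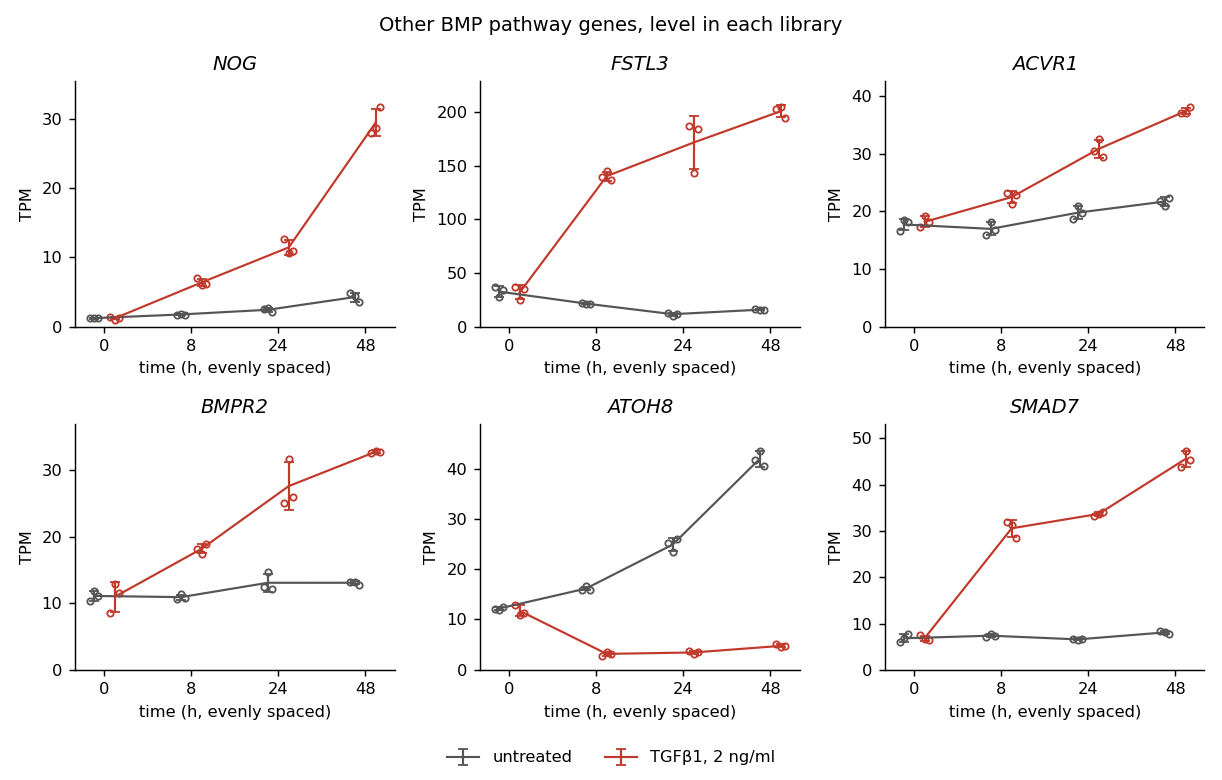
Level of NOG, FSTL3, ACVR1, BMPR2, ATOH8 and SMAD7 in each library (open circles, TPM) by time, with mean and SD of 3 libraries per arm (grey, untreated; red, TGFβ1). NOG ends at 29.4 against 4.26 TPM, and ATOH8 at 4.75 against 42.0 TPM; the arms overlap at 0 h in all 6 panels.

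Among 13 tested BMP targets outside the ID family, the F-test called 5 higher and 5 lower, against 21.0% and 21.6% of all genes. ATOH8, a helix-loop-helix gene induced by BMP signalling, was at 12.2 ± 0.33 and 11.7 ± 1.1 TPM at 0 h, at 16.1 ± 0.38 and 3.16 ± 0.35 TPM at 8 h, and at 42.0 ± 1.6 and 4.75 ± 0.29 TPM at 48 h. Its log2 arm difference of -2.21, -2.90 and -3.12 at 8, 24 and 48 h stood beside the -2.07, -2.88 and -2.87 of ID3. RUNX2, a bone transcription factor, was lower by -0.97 at 24 h, while the Notch targets HES1 and HEY1, also induced by BMPs, were higher by 0.77 and 1.59. The HEY1 libraries of the arms were already apart at 0 h, at 0.606 to 0.642 TPM and 0.761 to 0.999 TPM, where the log2 difference of 0.39 did not pass (adjusted p = 1). With library totals the count of targets was 3 higher and 7 lower, and with the reference genes it was 6 higher and 4 lower. Both scalings shift all genes in these directions, as given for the receptors.

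The F-test called all 15 intracellular inhibitors and co-factors, 11 higher and 4 lower, where it called 42.6% of all genes, 21.0% higher and 21.6% lower. SKIL and SMAD7, used above to show the response to TGFβ1, are among those called higher. The inhibitory SMAD7 rose to 45.6 ± 1.7 TPM at 48 h against 8.07 ± 0.35 TPM in untreated cells, and SMURF1, a ubiquitin ligase that targets SMAD1 and SMAD5, was higher by 1.10 on the log2 scale. TOB1, which represses BMP signalling, was lower by -1.02 at 24 h. Among 9 partners and regulators of ID proteins, 5 were higher and 2 lower, against the same shares of all genes. EGR1, an early-response factor known to activate ID1, was lower by -1.40 at 24 h, and TCF4, a partner bound by ID proteins, was higher by 0.45. Of 9 other ligands tested, from a list of BMP and GDF genes and NODAL, 1 was higher and 4 lower, again against 21.0% and 21.6% of all genes. They were listed by name, and whether each acts through BMP receptors was not tested. GDF15 was at 564 ± 34 TPM in untreated and 89.3 ± 3.8 TPM in treated cells at 48 h (log2 difference -2.66), and BMP6 was higher by 0.49.

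Genes with the pattern most like that of each ID gene were sought by Pearson's r over the 8 group means of log2 CPM among 13563 protein-coding genes (13564 for ID4) whose mean reached 1 TPM in any of the groups, as a description with no test. For ID3 these were KITLG (r = 0.992), RASL11A (r = 0.991) and NTHL1 (r = 0.983). RASL11A, a small GTPase-like gene, was at 20.2 ± 0.51 and 1.99 ± 0.37 TPM at 24 h, and KITLG, the ligand of the KIT receptor, at 70.5 ± 9.9 and 30.7 ± 3.2 TPM. For ID2 they were IL6R (r = 0.979), SERTAD2 and FAT4 (r = 0.970 each), and IL6R, the interleukin 6 receptor, was at 14.7 ± 0.64 and 3.88 ± 0.41 TPM at 24 h. For ID1 they were PARS2 (r = 0.983), RNF113A and ACTR3C, and for ID4 LRRC10B (r = 0.975), SDC4 and ENSG00000258989. Pearson's r takes no account of the size of a change. PARS2 was at 8.30 ± 0.25 and 7.28 ± 0.36 TPM at 24 h. Its ratio of treated to untreated mean was 0.878, where that of ID1 was 0.637. Among the members, ID3 and ID4 had r = 0.911 and ID1 and ID2 r = -0.251 over the same 8 groups, which share the treatment and the times.

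Most of the TPM of the ID genes came from their principal coding transcripts. ID1-202 made up 95.3 to 97.0% of ID1 over the groups, ID2-203 made up 70.7 to 85.7% of ID2, and ID3-201 made up 67.3 to 76.0% of ID3. ID3-202, annotated without a coding sequence, made up 20.9 to 29.3%. ID2B, a processed pseudogene of ID2, was at 0 TPM in all libraries. Strand use is not given in the sources used here, so reads of ID2 and its antisense gene ID2-AS1, of ID4 and LNC-LBCS, of BMP4 and ENSG00000287156, and of BMP7, SMAD1, SMAD5 and their antisense genes cannot be told apart.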

How the data were processed

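The series holds 24 RNA-Seq libraries of the SK-MES1 line, 12 per arm. The authors quantified the reads with kallisto 0.43.0 on Ensembl release 79 transcripts of GRCh38 and deposited 1 table per library with estimated counts, effective lengths and TPM for 173259 transcripts. The deposited estimated counts are not normalized and need not be whole, and the deposited TPM are corrected for length. Transcripts were matched to GENCODE 44 genes (17741 without a match were left out) and summed per gene, and sums were rounded. Genes that reached 10 estimated counts in 3 or more libraries were tested with limma 3.58.1 (voom, TMM, 1 mean per group, all 24 libraries) in R 4.3.3. p-values are two-sided and adjusted by Benjamini and Hochberg over all genes tested, with a threshold of 0.01. The study calls the replicates biological, and the labels do not say whether cultures were separate; if not, p-values measure technical spread.

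edgeR 4.0.16 and DESeq2 1.42.0 on the rounded counts, other scalings, filters and scales, a replicate block, fits on fewer libraries, and leaving out each library were alternatives. The genes and lists were chosen with earlier results of these data known. Named genes are the 10 members, at most 4 genes per list (lowest p of the F-test), 3 genes per ID gene by likeness of pattern, and transcripts of at least 10% of a member's TPM in some group. The searches for TATAAA, for the CCAAT box and in the upstream windows were added after the data were seen. Promoter windows of BMP2 and BMP7 and protein sequences were not used here. Counts limit ID4 most. Plots and tables were made with Python 3.11.15, pandas 2.3.3 and matplotlib 3.10.9.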

Additional observations from a re-analysis of the deposited data

Results flagged for a closer look

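Beside the changes from 0 to 8 h of ID2, ID3 and BMP4 given above, the arm difference of 3 of the 10 genes changed between later time points by a test of that change itself. For ID3 the log2 arm difference grew from 8 to 24 h by -0.809 ± 0.172 (SE, limma voom, adjusted p = 0.003), and for SMAD9 by -0.760 ± 0.172 (adjusted p = 0.0049), where 6.70% of all genes were called. For ID2 it shrank from 24 to 48 h by 0.833 ± 0.128 (adjusted p = 9.3e-05).

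The ID2 and ID3 changes passed under all 12 alternatives run, with adjusted p of 1.7e-08 to 0.0042 and 9.5e-05 to 0.0072. The SMAD9 change passed under 7 of 12, with adjusted p of 0.00089 to 0.059. With each library left out, ID2 passed in 24 of 24 fits, ID3 in 22 (not without treated replicate 3 at 8 h or treated replicate 2 at 24 h, highest adjusted p = 0.011) and SMAD9 in 16 (highest adjusted p = 0.018). The 8 and 24 h libraries carry different file codes, so for ID3 and SMAD9 an offset tied to the code cannot be told apart from the change, while the 24 and 48 h libraries of each arm share a code.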

How the results depend on the processing

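Under up to 13 alternatives per gene and time, 343 of 377 log2 arm differences at 8, 24 and 48 h kept their direction and their side of the threshold, 16 no longer passed, 3 newly passed and 15 changed sign. None of the values that changed sign had passed. With each library left out, 714 of 720 values kept both, 5 no longer passed and 1 newly passed. All calls of ID2, ID3 and BMP4, those of ID4 at 24 and 48 h where it was tested, and those of SMAD9 at 24 and 48 h kept direction and call throughout; ID4 was not tested at a minimum of 50 counts.

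The 4 reference genes moved the median log2 difference of all genes to 0.335 at 24 h and 0.336 at 48 h, against -0.015 and -0.013, and the share of called genes that were higher to 91.5% and 88.6%, against 52.7% and 49.6%. Library totals moved that share to 34.2% and 35.6%. With the reference genes the sign changed for ID1 at 48 h (0.141) and BMP2 at 24 and 48 h (0.241 and 0.210). On that scale 8 genes in place of 3 changed within the TGFβ1 arm from 24 to 48 h. The share of all genes called for that change on that scale is not given here. Library totals changed the sign at 8 h for BMP2 (-0.017), BMP7 (-0.048), SMAD1 (-0.052) and SMAD5 (-0.042), and upper-quartile factors for BMP7 (-0.007), SMAD1 (-0.010) and SMAD5 (-0.001). On the scales log2(TPM + 1) and log2(TPM + 0.1), limma-trend gave -0.010 for SMAD1 at 8 h and -0.094 and -0.099 for SMAD5 at 48 h, and length-scaled counts gave -0.072 for the latter. ID1 at 48 h passed in the fit on the 48 h libraries alone (-0.205, adjusted p = 0.00033). Apart from the scaling itself, the cause was not tested.

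Measured as the change from 0 h, 5 genes in place of 8 were called at 24 h, and over all 17413 genes 2899 in place of 5115. For the change from 8 to 24 h, 1 gene in place of 2 was called with length-scaled counts, with either TPM scale and in the fit on those time points alone, and 0 to 2 with a library left out. For the change from 24 to 48 h, leaving out a library gave 1 to 2 genes, with 2 without treated replicate 2 at 0 h. The shares of all genes called for these later changes under the alternatives are not given here.

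With a replicate block, 4, 8 and 7 genes were called at 8, 24 and 48 h, as without it, and 9 in place of 8 by the F-test. Over all genes the block gave 3201, 5657 and 6227 calls at 8, 24 and 48 h, in place of 2860, 5115 and 5688. The share of all genes in the F-test with the block is not given here. The numbers share no stated origin: same-numbered libraries correlated by -0.062 to 0.255, over 0.1 in 4 of 12 pairs, and 13 of 24 libraries correlated best with their own number.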
